A study of Mus musculus with 10 samples.

Results

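The genes described here encode the cyclic GMP enzymes of the photoreceptor: the subunits of the light-activated phosphodiesterase PDE6, the retinal guanylate cyclases and the proteins that activate them. They were chosen by gene symbol from the array's platform annotation. Of the 9 symbols Pde6a, Pde6b, Pde6g, Pde6c, Pde6h, Gucy2e, Gucy2f, Guca1a and Guca1b, 8 had a probe, 1 each, among the 33012 probes of the table, of which 14411 carried a single symbol. Pde6g, the rod inhibitory subunit, had no probe listed under its symbol and is not analysed here. Transcript levels were measured on 10 single-channel Applied Biosystems arrays, read by chemiluminescence of digoxigenin-labelled cRNA made from 1 µg of total RNA. The retina RNA was a pool from 350 adult C57/B6 mice (5 arrays), and the cortex RNA was a pool from 19 mice at postnatal day 1 (5 arrays), given as Swiss-Webster in the series text and as C57/B6 in the sample descriptions. Sample descriptions and series text both call the retina adult, while the titles of those arrays contain an unexplained P1. No genotype or treatment was named for either pool. The 5 arrays of a tissue repeated the same pool, so the p-values measure the spread between arrays and not between animals, and tissue, age and possibly strain cannot be told apart.

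In darkness, cyclic GMP holds the cation channels of the outer segment open. Light activates an opsin and then transducin, which relieves PDE6 of its inhibitory subunits so that the catalytic subunits hydrolyse cyclic GMP and the channels close. The fall in calcium that follows lets the guanylate cyclase activating proteins, which are calcium sensors, switch on the membrane guanylate cyclases and restore cyclic GMP. Rods build PDE6 from Pde6a, Pde6b and Pde6g, and cones from Pde6c and Pde6h.

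Upstream sequence was available for 5 of the 8 measured genes. The windows run from 250 bases before to 50 bases after the annotated transcript start (RefSeq, mouse build GRCm38.p6), are written 5′ to 3′ on the strand of the gene, and are shown because all 5 transcripts were higher in retina. Capitals mark the letters TAATC or their reverse complement GATTA, the core recognised by photoreceptor homeobox factors such as CRX, and the letters TGCTGA or their reverse complement TCAGCA, a half-site of the rod factor NRL.
Pde6b, chr5:108388123-108388422, plus strand: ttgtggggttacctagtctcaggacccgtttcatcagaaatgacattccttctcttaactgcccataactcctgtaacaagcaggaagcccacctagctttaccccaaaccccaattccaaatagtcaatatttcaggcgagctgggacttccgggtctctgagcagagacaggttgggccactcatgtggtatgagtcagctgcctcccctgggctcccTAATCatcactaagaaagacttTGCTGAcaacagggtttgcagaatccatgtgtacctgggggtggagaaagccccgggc
Pde6h, chr6:136954273-136954572, plus strand: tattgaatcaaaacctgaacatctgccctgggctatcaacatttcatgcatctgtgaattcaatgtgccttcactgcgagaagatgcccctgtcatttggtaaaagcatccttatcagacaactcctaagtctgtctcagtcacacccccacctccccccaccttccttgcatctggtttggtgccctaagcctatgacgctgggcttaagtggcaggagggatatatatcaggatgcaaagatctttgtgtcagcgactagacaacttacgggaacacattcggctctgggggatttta
Gucy2e, chr11:69236973-69237272, minus strand: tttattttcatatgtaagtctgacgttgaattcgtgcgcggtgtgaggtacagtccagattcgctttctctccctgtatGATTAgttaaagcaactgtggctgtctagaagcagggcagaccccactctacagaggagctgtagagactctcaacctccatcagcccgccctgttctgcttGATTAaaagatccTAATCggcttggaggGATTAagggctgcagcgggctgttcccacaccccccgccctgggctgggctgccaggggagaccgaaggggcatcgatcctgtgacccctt
Gucy2f, chrX:142196887-142197186, minus strand: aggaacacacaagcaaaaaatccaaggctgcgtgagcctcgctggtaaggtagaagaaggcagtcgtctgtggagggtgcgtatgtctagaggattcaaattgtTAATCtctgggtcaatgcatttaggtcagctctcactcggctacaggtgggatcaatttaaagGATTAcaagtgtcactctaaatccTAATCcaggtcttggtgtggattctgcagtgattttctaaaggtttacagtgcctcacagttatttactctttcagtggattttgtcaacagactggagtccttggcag
Guca1a, chr17:47400557-47400856, minus strand: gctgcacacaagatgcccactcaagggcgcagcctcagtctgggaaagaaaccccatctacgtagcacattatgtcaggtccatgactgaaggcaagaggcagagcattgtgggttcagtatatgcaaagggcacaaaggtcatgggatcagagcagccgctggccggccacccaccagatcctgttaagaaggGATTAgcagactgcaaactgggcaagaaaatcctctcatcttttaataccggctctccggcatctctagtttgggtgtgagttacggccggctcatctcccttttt
The homeobox core was found in 4 of the 5 windows, and 22.0% of the 32851 promoter windows of the same length held it on either strand. The longer form TAATCC, which contains that core, was in 3 of the 5, against 7.06% of all windows. Gucy2e had 4 core matches, which begin 171, 69, 56 and 41 bases before the start, and Gucy2f had 3, at 146, 83 and 59. Guca1a had 1 match, at 56, and Pde6b had 1, at 30. The NRL half-site was in the Pde6b window alone among the 5, at 8 bases before the start, and in 19.5% of all windows. A match describes letters only, and binding was not measured.

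**Figure D1:**
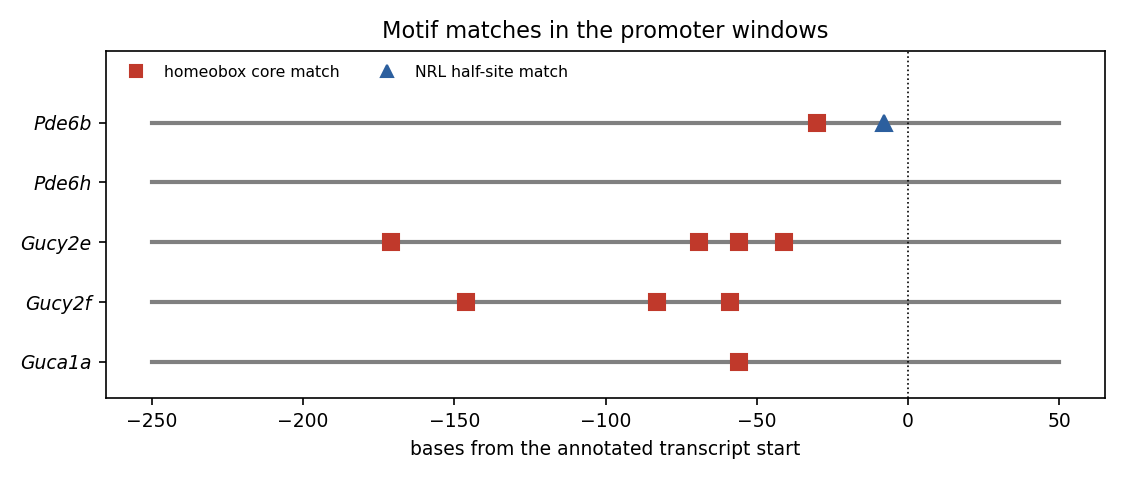
Matches to the homeobox core (squares) and the NRL half-site (triangle) in the 5 promoter windows, by distance in bases from the annotated transcript start (dotted line). Gucy2e holds 4 and Gucy2f 3 homeobox core matches, Pde6b and Guca1a 1 each, and Pde6h none.

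The comparison of retina with cortex was part of a study of how repeatable array platforms are. Levels below are log2 intensities after quantile normalization, each relative to its own probe, so that levels of different genes are not ranked against each other. Differences are retina minus cortex on that scale, from a limma fit of all 33012 probes. Probes counted as called had a Benjamini-Hochberg adjusted p below 0.05 together with a change of 2-fold or more. No detection flags were used here. As a yardstick for dim signal, the 95th percentile of 747 probes named for olfactory receptors lay at 10.87. In these bulk RNAs, fewer cells of a type and less RNA per cell cannot be told apart.

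Before normalization the array medians were 836 to 987 in retina and 1255 to 1341 in cortex, and without normalization the median difference of all probes was -0.41. All 4 measured rod markers outside the chosen genes (Gnat1, Nrl, Prph2, Cnga1) and all 5 cone markers were higher in retina, and all 4 measured cortical neuron markers (Neurod6, Tbr1, Dlx1, Bcl11b) were lower. Among all probes, 12.1% were called higher in retina and 13.3% lower. The summed rod markers ran from 21.69 to 21.77 in retina and from 11.33 to 12.09 in cortex on the log2 scale, and the cone markers from 19.11 to 19.24 and from 10.89 to 11.16. Some genes listed as markers of adjoining eye tissues were also higher in retina. Whether their signal came from those tissues or from the retina itself was not tested. Of 6 measured retinal pigment epithelium markers, 5 were higher in retina and Best1 was not called (-0.14), with sums of 18.55 to 18.98 in retina and 15.24 to 15.38 in cortex. Most of these sums came from Rlbp1, with means of 18.40 in retina and 15.25 in cortex, so they follow mainly that gene. Of 6 lens markers, the 3 crystallins were higher and Mip (0.03), Bfsp1 (-0.58) and Gja3 (0.28) were not called, with sums of 16.31 to 16.57 in retina and 11.37 to 11.84 in cortex. The only measured pineal marker, Tph1, was not called, at 9.41 to 10.11 in retina and 10.14 to 11.04 in cortex. No marker was listed at 0, and the part of these tissues in the differences below was not tested.

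All 8 measured genes were called higher in retina, where 12.1% of all probes were (13.3% were lower and 25.4% were called in either direction), and in all 8 the 5 retina arrays lay above the 5 cortex arrays, which held for 19.2% of all probes. Their median difference was 8.10, against -0.01 over all probes. By role, the activators of the cyclases differed by 8.52 and 11.03, the catalytic subunits of PDE6 by 7.68 to 10.80, the cone inhibitory subunit by 6.22, and the cyclases themselves by 2.62 and 3.07. In cortex, 7 of the 8 lay below the yardstick on every array, so the size of their differences is set in part by signal not shown to lie above background.

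**Figure D2:**
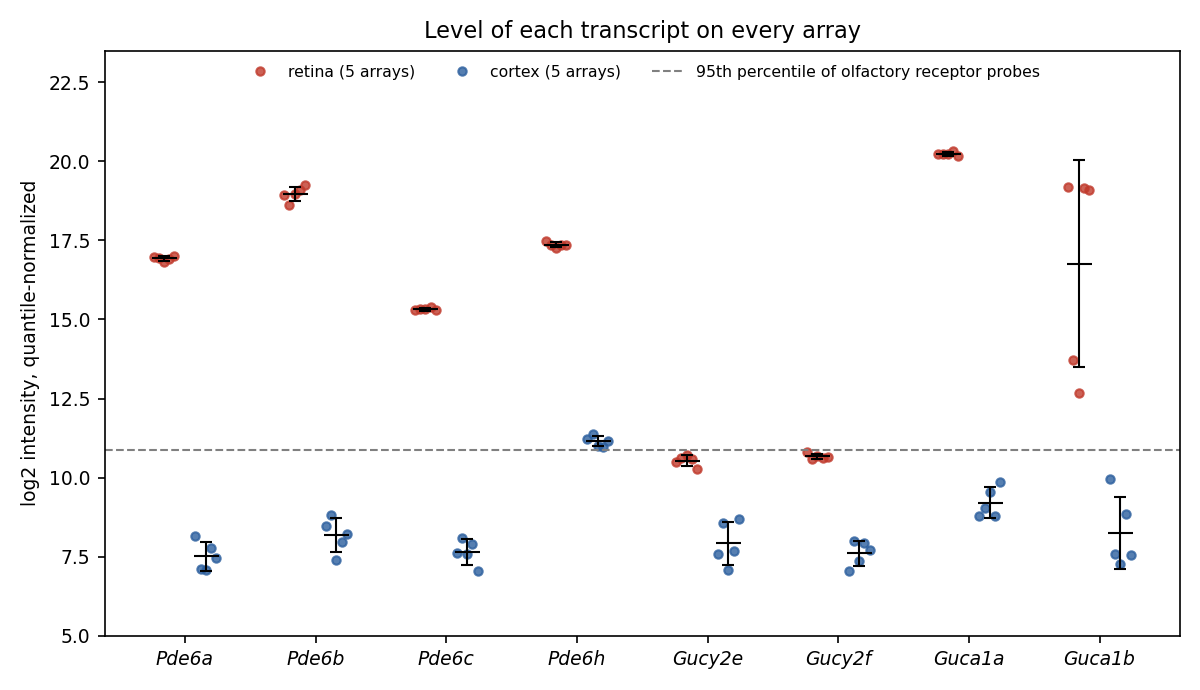
Quantile-normalized log2 intensity of the 8 transcripts on each retina array (red, left) and each cortex array (blue, right), with mean and SD (n = 5). Retina and cortex do not overlap for any gene. Gucy2e and Gucy2f lie below the yardstick (dashed, 10.87) in both tissues, and Guca1b is low on retina arrays 2 and 3.

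The rod catalytic subunits were both far higher in retina. Pde6b, which encodes the beta subunit and is the gene mutated in the classic retinal degeneration mouse, was at 18.92, 18.63, 18.96, 19.08 and 19.26 on retina arrays 1 to 5 and at 8.47, 8.83, 7.40, 7.96 and 8.20 on cortex arrays 1 to 5. The lowest retina array stood far above the highest cortex array. The difference was 10.80 (95% interval 10.38 to 11.21, limma adjusted p = 4.08e-17). With the cortex values raised to the yardstick, the mean retina log2 level was at least 274-fold higher. This bound, like those given for the genes below, compares means and need not hold for each single retina array. Pde6a, the alpha subunit, was at 16.98, 16.96, 16.83, 16.90 and 17.00 in retina and at 8.16, 7.10, 7.09, 7.77 and 7.45 in cortex. The retina arrays lay close together (SD 0.069), and the cortex arrays, all dim, spread more widely (SD 0.461). Its difference was 9.42 (9.07 to 9.77, limma adjusted p = 3.08e-17), and the bound was at least 66.8-fold.

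Cone PDE6 transcripts were higher in retina as well. Pde6c, the cone catalytic subunit, was at 15.29, 15.32, 15.32, 15.40 and 15.29 in retina and at 7.61, 8.07, 7.59, 7.91 and 7.04 in cortex. It was the steadiest of the 8 in retina, with an SD of 0.045 that was smaller than that of all but 0.966% of probes. The difference was 7.68 (7.34 to 8.02, limma adjusted p = 2.66e-16), with a bound of at least 21.9-fold. Pde6h, the cone inhibitory subunit, was at 17.48, 17.36, 17.26, 17.37 and 17.35 in retina and at 11.21, 11.36, 11.01, 10.98 and 11.15 in cortex. It was the only one of the 8 whose cortex arrays all lay above the yardstick, if narrowly, so its fold change was the one least set by dim signal. The difference was 6.22 (6.07 to 6.37, limma adjusted p = 2.67e-19), or 74.7-fold.

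The retinal guanylate cyclases gave weak signals. Gucy2e, the cyclase of rods and cones, was at 10.48, 10.62, 10.71, 10.60 and 10.27 in retina and at 7.57, 8.57, 7.09, 7.67 and 8.69 in cortex. Gucy2f, the second retinal cyclase, was at 10.81, 10.58, 10.70, 10.63 and 10.64 in retina and at 7.03, 7.99, 7.37, 7.93 and 7.71 in cortex. For both genes the tissues did not overlap, yet every array of both tissues was below the yardstick. The differences were 2.62 for Gucy2e (95% interval 1.90 to 3.35, limma adjusted p = 4.38e-06) and 3.07 for Gucy2f (2.45 to 3.69, limma adjusted p = 9.48e-08). Of the 747 olfactory receptor probes, 14 (1.87%) were called higher in retina, 5 of them by as much as Gucy2e or more. With all values below the yardstick raised to it, neither cyclase differed (0.00 for each), so no lower bound above 1-fold can be given for them.

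The activating proteins behaved unlike each other across arrays. Guca1a was at 20.23, 20.22, 20.23, 20.32 and 20.18 in retina and at 8.80, 9.05, 9.56, 8.79 and 9.86 in cortex. Its retina SD was 0.052, and its difference of 11.03 (10.69 to 11.37, limma adjusted p = 3.15e-18) had a bound of at least 659-fold. Guca1b, whose gene lies next to Guca1a in the RefSeq table, was at 19.18, 13.71, 12.68, 19.15 and 19.10 in retina and at 9.97, 7.58, 7.26, 8.86 and 7.56 in cortex. Retina arrays 2 and 3 lay at least 5.39 log2 units below the other three retina arrays, although all were hybridised with RNA of 1 pool. As deposited, those arrays read 11518 and 5613 where the others read 426406, 504798 and 459275. The SD of Guca1b was 3.28 in retina and 1.15 in cortex, and the cortex SD was larger than that of 98.6% of probes. Its difference was 8.52 (6.15 to 10.89, limma adjusted p = 4.75e-06). With the cortex values raised to the yardstick, the mean retina log2 level (16.76) was 59.4-fold higher. That fold is not a lower bound for every retina array, because arrays 2 and 3 (13.71 and 12.68) lay well below the mean. The difference was 9.27 without retina replicate 2, 9.56 without retina replicate 3, and 10.92 without both (limma adjusted p = 1.22e-10). Without any 1 of retina replicates 1, 4 and 5 it was 7.92 to 7.95, and without cortex replicate 1 it was 8.94.

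The swing of Guca1b was rare among bright probes. Of 1914 probes that reached a log2 level of 16 on at least 1 retina array, the median range over the 5 retina arrays was 0.25 and the 99th percentile 0.66. Guca1b ranged over 6.51. Only 3 of the 1914 ranged that widely, and the other two carry no symbol in the annotation. Guca1b was also the only one that was lower by at least 3 on both retina replicates 2 and 3 than on the other retina arrays, and no other choice of a pair of retina arrays gave such a probe. The other 7 genes had retina SDs of 0.045 to 0.234.

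**Figure D3:**
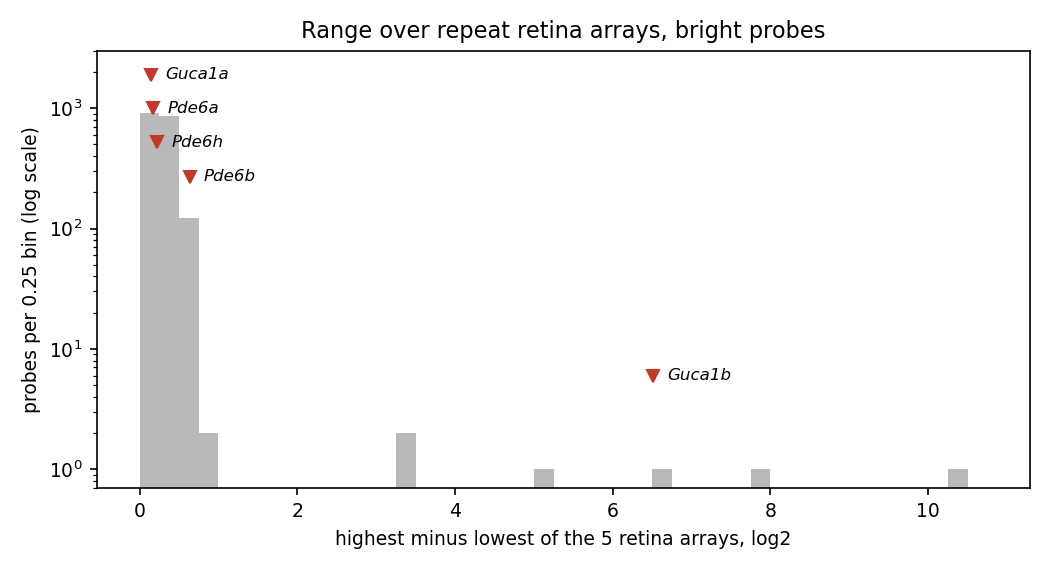
Histogram (log count axis) of the range over the 5 retina arrays for the 1914 probes that reached log2 16 in retina, with 5 of the genes marked at their range (marker height has no meaning). Guca1a, Pde6a and Pde6h lie at 0.14 to 0.22, Pde6b at 0.64, just under the 99th percentile of 0.66, and Guca1b at 6.51.

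The sizes of the measured tissue differences could be ordered only in part. Except for Pde6h, every gene lay below the yardstick on all cortex arrays. Steps between such genes depend on how bright each probe was in retina and do not rank true fold changes. From largest to smallest the order was Guca1a, Pde6b, Pde6a, Guca1b, Pde6c, Pde6h, Gucy2f and Gucy2e. Each of the 7 neighbouring pairs was tested on the within-array log2 difference of its probes, retina against cortex. The test was an exact permutation test, 2-sided, over all ways to assign the arrays, with Benjamini-Hochberg adjustment over the 7 pairs. The smallest p this allows before adjustment is 0.00794. The steps that passed were Pde6b over Pde6a, by 1.38 (SE 0.306, adjusted exact permutation p = 0.037), Pde6c over Pde6h, by 1.46 (SE 0.182, 0.0278) and Pde6h over Gucy2f, by 3.16 (SE 0.191, 0.0278). The first lost its call without any 1 of retina replicates 1, 3, 4 and 5 (1.33 to 1.40, adjusted exact permutation p = 0.0556). Guca1a and Pde6b differed by 0.23 (SE 0.393), Pde6a and Guca1b by 0.90 (SE 1.48), Guca1b and Pde6c by 0.84 (SE 1.55), and Gucy2f and Gucy2e by 0.45 (SE 0.264), none of which passed (adjusted exact permutation p = 0.236 to 0.603). The place of Pde6h in this order rests on dim cortex signal of the others. With signal below the yardstick raised to it, the differences were 9.36 for Guca1a, 8.10 for Pde6b, 6.22 for Pde6h, 6.06 for Pde6a, 5.89 for Guca1b and 4.45 for Pde6c. The step between Pde6c and Pde6h then turned to -1.77 (adjusted exact permutation p = 0.0139). Every cortex array of Pde6c sat at the yardstick in that setting. Its raised difference is only a lower bound, so the turned step does not rank Pde6c and Pde6h either.

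**Figure D4:**
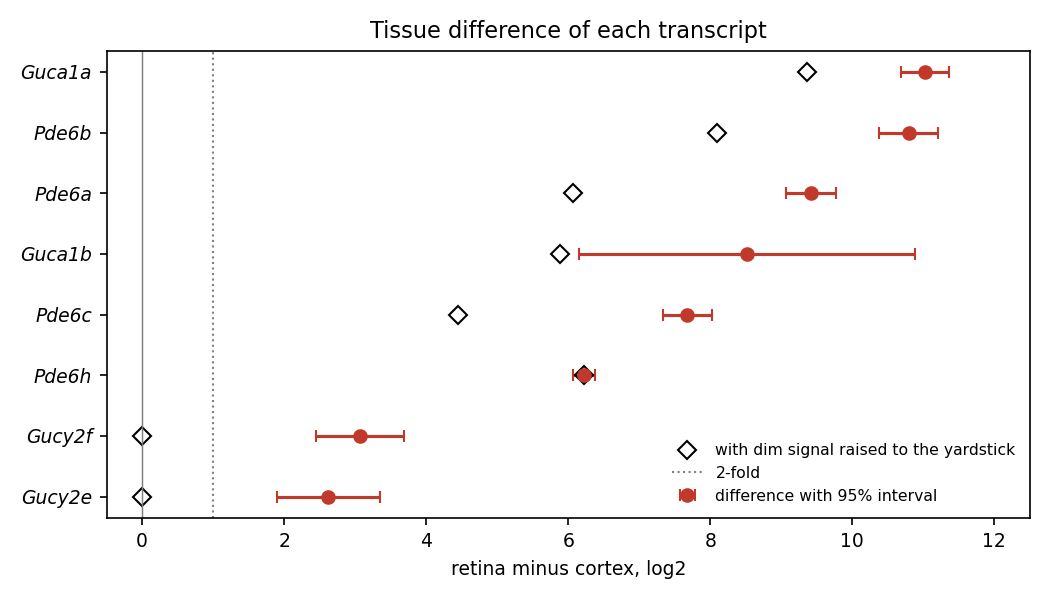
Retina minus cortex difference of each gene on the log2 scale with its 95% interval (red), and the same after raising dim signal to the yardstick (diamonds). All intervals lie right of the 2-fold line (dotted), and the diamonds of Gucy2e and Gucy2f fall to 0.

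Some other genes had array profiles close to those described. With each probe centred on its own cortex mean, the nearest named gene was found by the mean absolute deviation over the 10 arrays, a measure set mainly by the size of the tissue difference. Guca1a was nearest to Gngt1, the rod transducin gamma subunit (deviation 0.35 log2 units), and Pde6b to Cnga1, the rod channel subunit (0.38). Pde6h was nearest to Ankrd33b (0.087), Pde6a to Kcnj14 (0.27) and Pde6c to Ppm1n (0.20). The cyclases were nearest to genes not known for phototransduction, Gucy2e to Prxl2c (0.15) and Gucy2f to the fatty acid oxidation gene Cpt1a (0.15). Guca1b had no close match: its nearest gene, the rod channel subunit Cngb1, deviated by 1.51.

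The partners of these enzymes in the light response were higher in retina too. Of 11 measured rod partners, 9 rose, 1 fell and 1 missed the threshold, and the list median was 9.66. For comparison, 12.1% of all probes were called higher and 13.3% lower. Phosducin (Pdc), which binds transducin beta and gamma, differed by 11.57 (SE 0.162), Gngt1 by 11.19 (SE 0.227) and Cnga1 by 10.62 (SE 0.0843). Rgs9, which with its partners ends the active state of transducin and so of PDE6, was the gene lower in retina, at 11.64 to 12.15 in retina and 14.20 to 14.39 in cortex (-2.33, SE 0.0857, limma adjusted p = 3.62e-13). Its anchor Rgs9bp was not called (0.87, SE 0.353) and was below the yardstick on every array of both tissues. Which transcript forms of Rgs9 the probe reads was not tested. Of 9 cone partners, 8 rose and 1 missed the threshold, and the list median was 5.88. With dim signal raised to the yardstick 6 of the 9 were called, and without normalization 7. The transducin beta subunit gene Gnb3 was dim on every array of both tissues, which overlapped (1.36, SE 0.352), and was at 0.00 with dim signal raised. The cone transducin gene Gnat2 differed by 9.60 (SE 0.167), the short-wave opsin gene Opn1sw by 9.53 (SE 0.203) and the cone arrestin gene Arr3 by 7.47 (SE 0.204). The exchanger gene Slc24a2 was not called and was dim in both tissues (-0.44, SE 0.388).

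The genes listed for prenylation, assembly and transport of PDE6 and the cyclases ranged widely in level. Some were dim in cortex or in both tissues, and others were bright in both tissues. Whether each listed gene acts on these enzymes was not tested. Of 9 measured genes, 5 rose and 4 missed the threshold, where 12.1% of all probes were called higher, and the list median was 1.53. Aipl1, the chaperone that PDE6 needs for assembly, was at 19.27 to 19.41 in retina and 8.82 to 9.69 in cortex (10.02, SE 0.116, limma adjusted p = 3.17e-19). The lipid-binding trafficking gene Unc119 differed by 5.26 (SE 0.0612), and Icmt, which methylates prenylated proteins, by 4.55 (SE 0.0503). Pde6d, once described as a PDE6 subunit and now known as a carrier of prenylated proteins, was bright in both tissues, at 17.81 to 18.05 in retina and 16.30 to 16.49 in cortex (1.53, SE 0.0556). The farnesyltransferase subunits Fnta (0.65, SE 0.0614) and Fntb (0.86, SE 0.0964) and the small GTPase Arl3 (0.97, SE 0.063) fell short of 2-fold, and Rp2, its GTPase-activating protein, was at -0.31 (SE 0.288). The means of Rp2 lay below the yardstick in both tissues (10.44 in retina, 10.75 in cortex).

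Relatives outside the photoreceptor pathway moved in both directions. Of 12 measured phosphodiesterase genes of other families, 3 rose, 3 fell and 6 missed the threshold, and the list had a median of 0.16 and a range of -2.89 to 4.42. Over all probes, 12.1% were called higher and 13.3% lower, so counts in lists this short say little about these families. Pde8a, which is selective for cyclic AMP, differed by 4.42 (SE 0.1) and Pde8b by 2.64 (SE 0.189). Lower in retina were Pde2a, which hydrolyses both cyclic nucleotides (-2.89, SE 0.0463), Pde10a, known from the striatum (-2.57, SE 0.123), and the cyclic GMP-selective Pde9a (-1.38, SE 0.0972). Of 4 other guanylate cyclase genes, 1 fell and 3 missed the threshold, and the list median was -0.42. The lower one was Gucy1b2, a soluble cyclase subunit, at 8.06 to 10.03 in retina and 10.91 to 11.36 in cortex (-2.02, SE 0.324), and its call was lost when dim signal was raised to the yardstick. The soluble subunit Gucy1a1 was alike in level, at 14.35 to 14.52 in retina and 14.34 to 14.58 in cortex (-0.08, SE 0.0571).

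The calcium sensors related to the activating proteins were mixed. Of 9 measured, 3 rose, 2 fell and 4 missed the threshold, and the list median was 0.05. Among all probes the shares called higher and lower were 12.1% and 13.3%. Recoverin (Rcvrn), the sensor that restrains rhodopsin kinase and also counted among the rod partners, was at 18.27 to 18.56 in retina and 8.36 to 8.97 in cortex (9.76, SE 0.106). Ncs1 (-2.31, SE 0.127) and the potassium channel partner Kcnip2 (-2.02, SE 0.217) were lower in retina. Without normalization 1 of the 9 was called higher in place of 3.

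**Figure D5:**
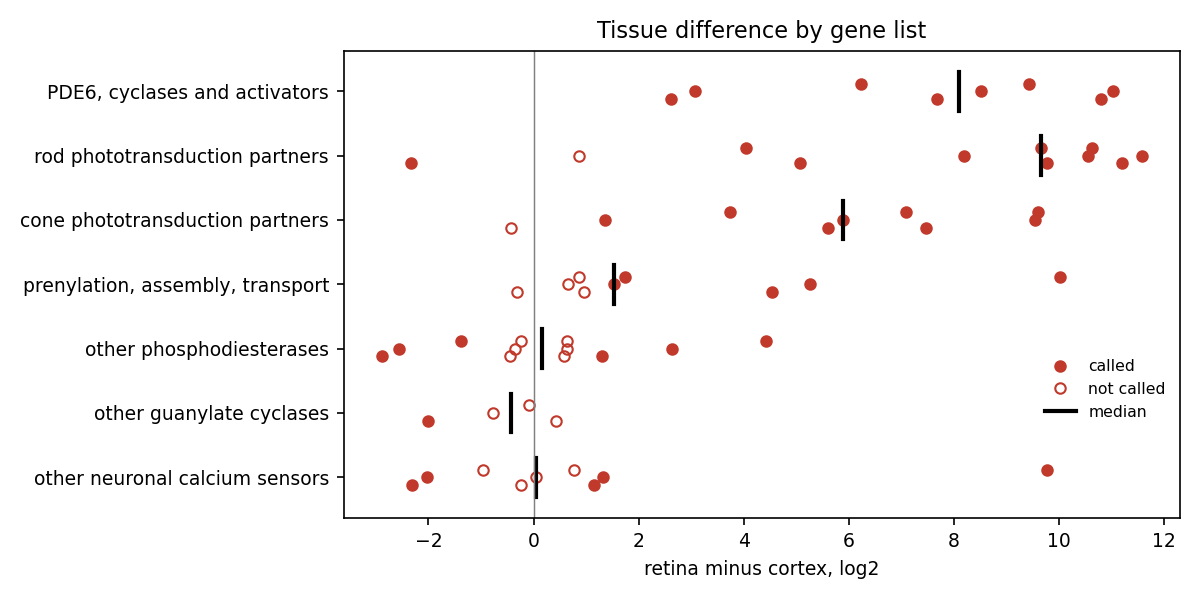
Retina minus cortex difference on the log2 scale for each measured gene of 7 lists (filled, called; open, not called), with the list median (black bar). The medians of the rod and cone partners stand at 9.66 and 5.88, and those of the other phosphodiesterases, guanylate cyclases and calcium sensors at 0.16, -0.42 and 0.05.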

How the data were processed

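Groups and replicate numbers were taken from the sample titles. The intensity values deposited by the authors are linear and positive. Their scanner software, background correction and normalization are not given in the sources used here. Labelled cRNA was made from total RNA extracted with TRIzol, per the labels' protocols. Values were put on the log2 scale and quantile-normalized, and the tissues were compared in limma 3.58.1 (R 4.3.3; eBayes with intensity trend, no covariates), with Benjamini-Hochberg adjustment over 33012 probes. The code was tested on simulated data. SE and intervals are those of limma after shrinkage, except for differences between neighbouring genes, where SE comes from the arrays. Symbols came from the platform annotation, and matching 14402 probes to RefSeq by Entrez ID changed 0 of them. In lists, the probe with the highest mean stood for a gene.

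The genes, lists, yardstick and rules were chosen with earlier results of these data known. Named in each list were the 3 largest called differences and any called gene against the direction of its list. Genes not called, and Pde6d, were named as examples after their values were seen. Alternatives were other scalings, an offset of 50 before the log, other variance models, a filter and a floor on dim probes, a test against 1.5-fold, a replicate block and leaving out arrays. The RNAs were pools with repeat arrays, so the 5 arrays a tissue limit the precision, and no spread between animals was measured.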

Additional observations from a re-analysis of the deposited data

Results flagged for a closer look

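In 54 sets of 5 arrays (the described genes and the named genes of the lists, in each tissue), 1 array stood apart by Dixon's test, where chance alone flags about 1 set in 20. Gnat2 was at 17.23 on retina replicate 3 and at 17.02 to 17.05 on the other retina arrays. Guca1b was not flagged by this test, because its low arrays in retina were a pair.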

How the results depend on the processing

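All 8 genes kept their direction and call under every setting tried, except that Gucy2e and Gucy2f were at 0.00 with dim signal raised to the olfactory receptor yardstick, which left 6 of 8 called. That setting called 4873 of all probes in place of 8379 (2358 higher and 2515 lower in retina, in place of 3987 and 4392), left 0 other guanylate cyclases lower in place of 1 and turned Pde6c minus Pde6h to -1.77. It also brought Guca1a over Pde6b past the threshold (1.27), but both genes then sat at the yardstick on every cortex array. That step is only the gap between the retina levels of the probes, so it cannot order their tissue differences. Raising dim signal was applied to the neighbouring pairs after the data were seen, as was leaving out both low arrays of Guca1b. Without normalization, 2474 probes were higher and 7621 lower, 2 other guanylate cyclases were lower, and 1 calcium sensor was higher in place of 3. Leaving out 1 array moved Guca1b between 7.92 and 9.56, Pde6b minus Pde6a between 1.25 and 1.63, with its call lost in 4 of 10 cases, and Pde6a minus Guca1b between -0.10 and 1.502, reversed without retina replicate 3. The causes of these changes were not tested beyond what each setting removes. Same-numbered arrays of the tissues did not deviate together (correlations -0.02 to 0.029), and retina replicates 1, 4 and 5 correlated best with their own number. With the replicate number as a block, 8398 probes and all 8 genes were called, with Guca1b at 8.52 (limma adjusted p = 1.28e-07). Among the 8 genes, dim cortex signal limits the fold of all but Pde6h. The cortex arrays of Pde6h lay only narrowly above the yardstick (10.98 to 11.36 against 10.87). Its fold is therefore the least limited, but is not shown to be free of that limit.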
